A study of Homo sapiens with 5 samples.

Results

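Of the 7968 origins in the highest of 3 efficiency classes of the 3-hour ini-seq 2 list, 1360 (17.1%) held no G-quadruplex (G4) motif. The whole list holds 23905 origins, and 29.0% of these lacked a motif. The 1360 origins were selected on 2 values. Their deposited value, read as efficiency, was above 0.9065, and their hg38 sequence held no place on either strand where 4 runs of at least 3 G were joined by loops of 1 to 7 nt. HL is DNA that became heavy on 1 strand in the reaction, and LL is DNA that stayed light on both. Efficiency is HL/(HL + LL) at a site, from reads scaled to the total of each library. It is thus a relative measure and not itself the fraction of DNA copied. The column is headed Z-score and was read as efficiency because its values run from 0.8, the calling limit in the study's methods, to 1. The 1360 were compared with the 6608 origins of the same efficiency class that did hold a motif.

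Ini-seq 2 starts DNA replication in a test tube. Nuclei of EJ30, a human bladder carcinoma line, were taken after a mimosine arrest in late G1 phase and incubated with cytosolic S100 extract of HeLa cells and Br-dUTP, for 3 h or for 15 minutes. SNS-seq, which sequences short nascent leading strands, was done on EJ30 cells in 2 size fractions, 1 of 0.5 to 2 kb and 1 of 2 to 4 kb. All 4 lists are thus of 1 cell line, both ini-seq 2 lists from mimosine-arrested cells, with 1 list per time or size fraction. The 3-hour list pools 2 biological replicates, and no list holds counts, so the depth behind a value and the spread between replicates are unknown. Tests below therefore compare origins within the 3-hour list, with 23 chromosomes (1 to 22 and X) as the units of spread, and they say nothing about how far a repeat of the experiment would differ.

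A G-quadruplex is a 4-stranded fold that G-rich single-stranded DNA can adopt when runs of G stack on each other through planar tetrads. Such motifs are frequent in CpG islands, at gene starts and at mapped replication origins of mammalian genomes, where they have been discussed as part of what marks an origin. Because G-rich sequence holds motifs, GC content and length have to be set alongside any contrast between origins with and without one.

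The sequences of 4 GC-rich origins without a motif show how near they came to holding one. They are the most efficient at a protein-coding gene start and away from any annotated start among those with at least 60 bases outside annotated UTRs, and capitals mark runs of 3 or more G or C. All are given 5′ to 3′ on the plus strand of hg38. The origin at the VKORC1L1 start (efficiency 0.9911) is shown at chr7:65873001-65873073, that at the ZNF32 start (0.9901) at chr10:43648882-43649100, a site on chromosome 3 in the body of a non-coding gene (efficiency 1) at chr3:96813401-96813700 and a site in a coding exon where PALLD and CBR4 overlap (efficiency 1) at chr4:168878100-168878299.
VKORC1L1 origin: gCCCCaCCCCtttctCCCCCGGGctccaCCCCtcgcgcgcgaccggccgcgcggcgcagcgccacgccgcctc
ZNF32 origin: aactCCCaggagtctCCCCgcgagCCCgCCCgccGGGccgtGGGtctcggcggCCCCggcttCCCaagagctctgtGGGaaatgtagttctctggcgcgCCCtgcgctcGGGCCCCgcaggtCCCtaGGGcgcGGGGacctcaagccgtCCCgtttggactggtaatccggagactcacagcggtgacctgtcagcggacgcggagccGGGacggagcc
Chromosome 3 origin: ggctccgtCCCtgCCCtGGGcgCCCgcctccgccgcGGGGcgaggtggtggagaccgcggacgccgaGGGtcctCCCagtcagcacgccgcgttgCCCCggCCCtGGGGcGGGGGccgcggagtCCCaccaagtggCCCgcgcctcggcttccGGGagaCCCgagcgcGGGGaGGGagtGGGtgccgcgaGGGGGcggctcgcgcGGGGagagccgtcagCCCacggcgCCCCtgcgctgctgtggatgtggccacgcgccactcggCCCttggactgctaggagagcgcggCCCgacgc
PALLD and CBR4 origin: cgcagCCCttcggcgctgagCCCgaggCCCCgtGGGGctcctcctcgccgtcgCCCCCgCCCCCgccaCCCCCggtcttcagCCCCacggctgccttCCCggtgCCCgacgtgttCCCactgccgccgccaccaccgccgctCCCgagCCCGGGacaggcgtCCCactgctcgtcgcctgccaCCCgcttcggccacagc
The stretches shown for ZNF32 and chromosome 3 held 7 and 11 G runs and 10 and 13 C runs. That of PALLD and CBR4 held 2 G runs beside 14 C runs, and the short VKORC1L1 stretch held 1 G run and 4 C runs. Over the whole VKORC1L1, ZNF32 and chromosome 3 origins a motif would have been counted if loops of 8 nt had been allowed, and in the PALLD and CBR4 origin with loops of 9 nt.

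Another kind of origin without a motif was poor in GC. The longest of all, a 3000 bp origin in an ANKDD1A intron (chr15:64952001-64955000, efficiency 0.9493), is shown by its central bases at chr15:64953400-64953599, with the same meaning of capitals.
ANKDD1A tract: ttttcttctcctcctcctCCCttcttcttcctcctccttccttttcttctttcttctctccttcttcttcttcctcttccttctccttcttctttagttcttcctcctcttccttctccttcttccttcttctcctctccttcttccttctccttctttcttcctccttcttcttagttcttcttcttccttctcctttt
This is a tract in which nearly all bases of 1 strand are purines (A and G) or pyrimidines (C and T): purine content was 2.97% and GC content 38.7% over the whole origin. It was not called at 15 minutes, and no SNS-seq peak overlapped it.

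Among the 1360 origins, a lack of G runs was the exception. On the richer strand 1349 (99.2%) held 4 or more runs, with a median of 20 runs, and 1092 (80.3%) held 3 runs in a row within the loop limit, which is 1 run short of a motif. The widest loop that had to be allowed for a motif to appear was 8 nt in 298 origins (21.9%), 9 to 12 nt in 608 (44.7%), 13 to 20 nt in 323 (23.8%), 21 to 30 nt in 77 (5.66%). In the other 54 (3.97%) loops of 30 nt gave none, and these include the 11 origins with fewer than 4 runs on both strands, in which no loop length could give a motif. With loops of up to 12 nt, 454 origins (33.4%) still had none. The nearest motif outside crossed or touched an edge in 64 origins (4.71%), began 1 to 250 bp outside in 366 (26.9%), beyond that but within 1 kb in 229 (16.8%) and 1 to 10 kb outside in 541 (39.8%), and was farther than 10 kb away in 160 (11.8%). Thus 701 of the 1360 had none within 1 kb, and the median distance was 1102 bp, against 753 bp to the nearest motif outside in origins that held one, weighted to the same length, GC content and efficiency, a difference that was not tested. The origin at the start of SLK, a serine/threonine kinase, was 1 of the 160 with none within 10 kb, with efficiency 1 and a GC content of 80.6% over 500 bp.

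The choice of members shapes their size and composition, so these values are descriptions. Origins without a motif had a median length of 600 bp (quartiles 400 and 800 bp) against 1000 bp with a motif, a median GC content of 70.3% against 71.5%, and a median efficiency of 0.9338 against 0.9409. The share of efficient origins that lacked a motif was 50.2% at 300 bp (220 of 438), 41.4% at 400 bp, 29.8% at 500 to 600 bp, 16.2% at 700 to 1000 bp and 4.78% beyond (153 of 3198). By chromosome this share ran from 11.8% on chromosome 17 (54 of 456) to 23.6% on X (48 of 203). Just inside the efficiency limit lay origins in a BANP exon (0.9066), a DMD exon (0.9066) and a DGKD intron (0.9068), and just outside it motif-free origins in GABRD, at the YTHDC2 start and at the GOLM2 start (0.9065 each).

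**Figure D1:**
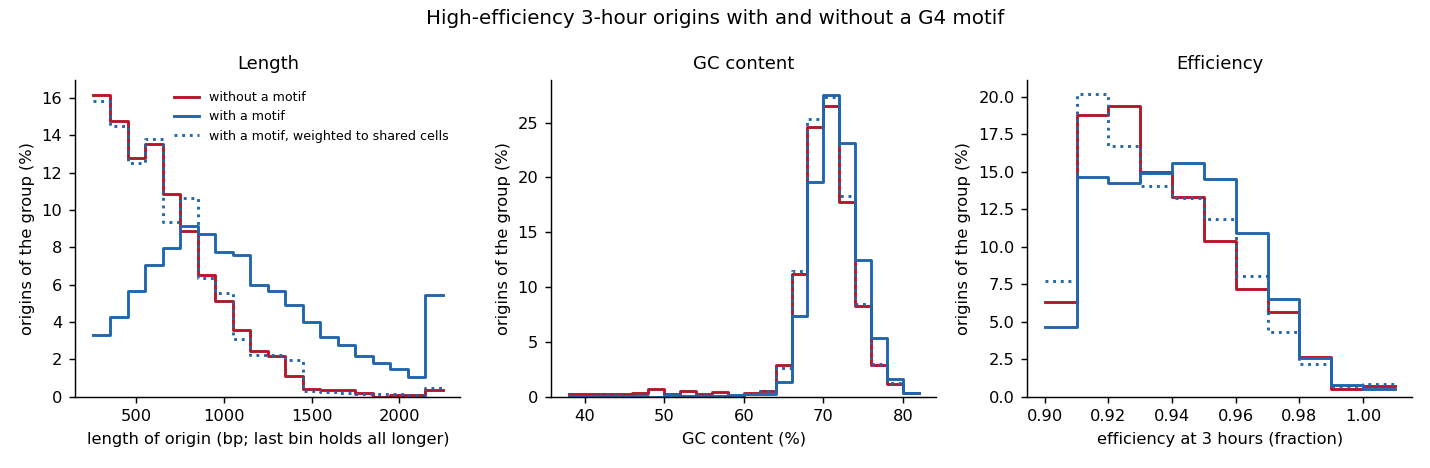
Length (bp), GC content (%) and efficiency (fraction) of high-efficiency 3-hour origins, as the percentage of each group per bin. Red lines are the 1360 origins without a G4 motif, blue lines the 6608 with one and dotted lines the latter after weighting to shared cells; the red and dotted lines lie close together, while unweighted origins with a motif reach greater lengths.

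To set like beside like, efficient origins were sorted into cells by 8 length classes, GC bins of 2 percentage points and 3 bands of efficiency, and origins with a motif were weighted to the cell counts of those without. Of the origins without a motif, 1317 fell into the 153 cells that held both kinds, beside 6185 origins with a motif, and 43 had no counterpart and were left out. After weighting, the median length was 600 bp, the median GC content 70.6% and the median efficiency 0.9337 in origins with a motif. The mean GC content within 200 bp of the centre was 71.8% without and 72.0% with a motif, and 4 to 5 kb away it was 44.9% and 45.8%. Observed over expected CpG had a median of 0.831 without a motif and 0.794 in the weighted origins with one, a difference that was not tested. By GC content over 50% and a CpG ratio over 0.6, 1247 of the 1360 (91.7%) met the usual composition of a CpG island, the unmethylated GC-rich stretch found at most housekeeping promoters. Of the origins with a motif 6277 of 6608 (94.99%) did so, but in shared cells the order turned, with 94.0% without and 89.3% with a motif, which was not tested.

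**Figure D2:**
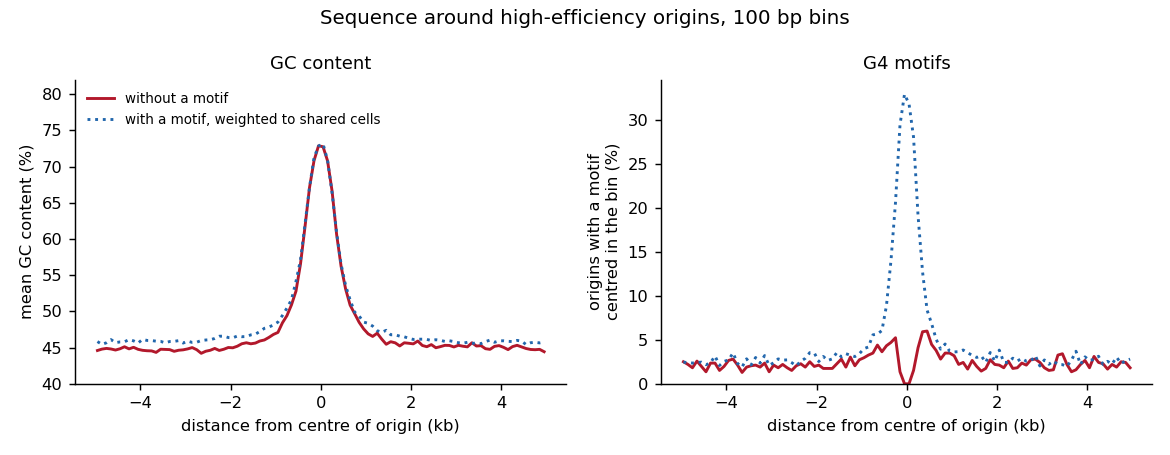
Mean GC content (left, %) and share of origins with a G4 motif centred in the bin (right, %) in 100 bp bins by distance from the centre of the origin (kb), for the 1317 origins without a motif (red) and the weighted origins with one (dotted blue). The GC curves nearly coincide at the centre, and motifs are absent from the centre of the red curve by selection.

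The 15-minute list records sites that had already fired early in the reaction. It held 864 of the 1360 origins without a motif (63.5%, exact Clopper-Pearson interval 60.9 to 66.1%, which like all intervals of shares here covers counting error only) and 5851 of the 6608 with one (88.5%), against 40.1% of the whole 3-hour list. Without weighting the difference was -25.01 percentage points (95% interval -27.8 to -22.2, adjusted p = 6.08e-14, n = 23 chromosomes). In shared cells the shares were 65.3% and 68.3%, a difference of -3.04 points (95% interval -7.09 to 1.004, adjusted p = 0.462, n = 23 chromosomes), lower without a motif on 13 of the 23 chromosomes. The value moved with the form of the adjustment. With wider cells, of 3 length classes and 5 points of GC content and no split by efficiency, the difference was -7.06 points (adjusted p = 0.0021, n = 23 chromosomes), and with a linear regression on length, GC content and efficiency it was -6.78 points (adjusted p = 0.00023, n = 23 chromosomes). Finer cells gave -2.70 points (adjusted p = 0.544, n = 23 chromosomes). In shared cells of origins of 300 to 600 bp alone the shares were 49.3% and 50.01%, a difference of -0.674 points (95% interval -6.48 to 5.13, adjusted p = 0.812, n = 23 chromosomes).

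**Figure D3:**
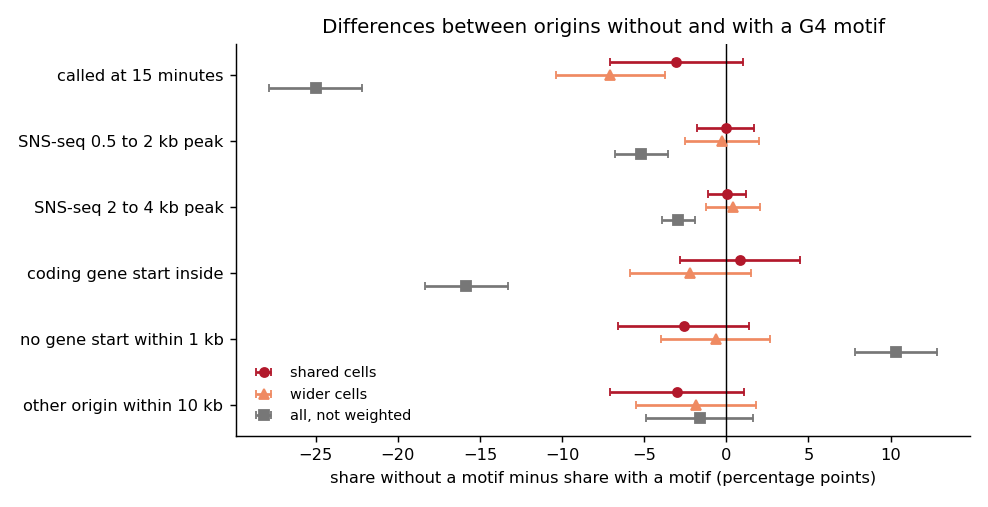
Share of origins without a motif minus share of origins with one (percentage points) for 6 properties; points are estimates and bars 95% intervals with the standard error clustered by chromosome (n = 23). Circles are the shared cells, triangles the wider cells and squares all origins without weighting; the squares lie away from 0 except for a neighbouring origin, and every circle's bar crosses 0.

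Longer origins were called more often at 15 minutes in both groups. Without a motif the call was made for 65 of 220 at 300 bp (29.5%), 80 of 201 at 400 bp (39.8%), 227 of 358 at 500 to 600 bp (63.4%), 352 of 428 at 700 to 1000 bp (82.2%) and 140 of 153 beyond (91.5%). With a motif the corresponding shares were 35.3%, 47.5%, 73.7%, 92.3% and 97.5%, each higher than without a motif. These bands are not balanced for GC content or efficiency within them, nor for length where a band spans several lengths. Counted by number of motifs, the share was 63.5% with none, 78.3% with 1, 88.5% with 2 and 92.5% with 3 motifs, at median lengths of 600, 700, 900 and 1000 bp. Held to 300 to 600 bp and 68 to 74% GC, the shares were 51.6% with no motif (265 of 514), 56.0% with 1 (258 of 461), 68.8% with 2 (137 of 199) and 61.3% with 3 or more (73 of 119), a description that was neither weighted nor tested. Origins without a motif that gained one when loops of 12 nt were allowed were called at 15 minutes in 70.1% (635 of 906) and the rest in 50.4% (229 of 454), at median lengths of 700 and 500 bp.

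**Figure D4:**
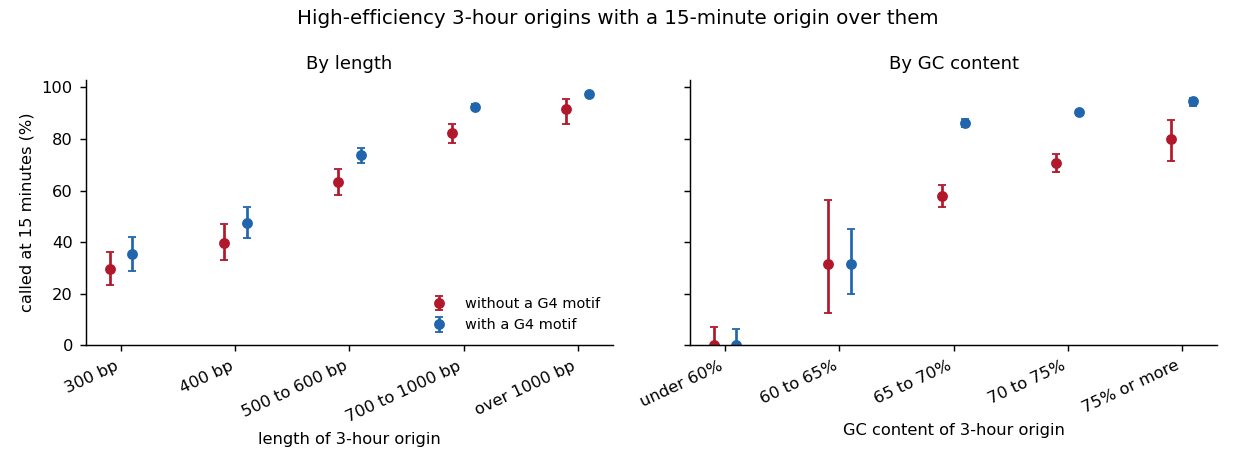
Share of high-efficiency 3-hour origins with a 15-minute origin over them (%), by length and by GC content, without a G4 motif (red) and with one (blue); bars are exact 95% Clopper-Pearson intervals. The share climbs with length in both groups, from 29.5% to 91.5% without a motif.

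Where an origin was called at both times, its 15-minute score could be compared. The deposited 15-minute value is a Z-score over that list, and it averaged -0.0928 in the 850 origins without a motif in shared cells and -0.0440 in the 5451 with one. The difference was -0.0488 (95% interval -0.126 to 0.0288, adjusted p = 0.462, n = 23 chromosomes). Called intervals were mostly shorter at 15 minutes. The 3-hour interval was the longer in 72.7% of pairs without and 83.6% with a motif, which was not tested. Over origins without a motif the median was 500 bp, against 700 bp for the same origins at 3 hours. In 72.2% of these pairs the 15-minute interval lay wholly inside, but in 145 of 864 it was longer and in 91 equal. Of the 864 overlapping 15-minute intervals 111 (12.8%) did hold a motif, since they reached beyond the 3-hour edge.

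SNS-seq, which does not rest on the cell-free reaction, mapped peaks over nearly all of these origins. Peaks of the 0.5 to 2 kb fraction overlapped 1263 origins without a motif (92.9%), beside 78.0% of the whole 3-hour list, and peaks of the 2 to 4 kb fraction overlapped 1304 (95.9%), beside 91.3%. In shared cells the smaller fraction overlapped 95.3% of both kinds, a difference of -0.036 points (95% interval -1.76 to 1.69, adjusted p = 0.966, n = 23 chromosomes). For the larger fraction the shares were 98.2% and 98.1%, a difference of 0.034 points (95% interval -1.13 to 1.19, adjusted p = 0.966, n = 23 chromosomes). Unweighted, the gaps were -5.18 and -2.92 points. Peaks were longer than the origins, with medians of 1298 and 2049 bp, and 418 of the 1263 smaller-fraction peaks (33.1%) and 611 of the 1304 larger-fraction peaks (46.9%) held a G4 motif outside the ini-seq 2 interval. The centre of the peak lay a median of 142 bp from that of the origin in the smaller and 210 bp in the larger fraction. All 3 other lists marked 851 of the 1360 origins, and none of them marked 54, of which 46 were purine or pyrimidine tracts (purine content above 75% or below 25%). The same counts were not taken for origins with a motif or for the whole list.

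Gene starts were the commonest place for an efficient origin without a motif. A gene start is the outermost annotated start of a gene, so starts of shorter transcripts were not counted. A protein-coding gene start lay inside 567 of them (41.7%) and another gene start inside 92 (6.76%). A further 430 (31.6%) overlapped an exon of a coding gene without holding a gene start. With starts of all protein-coding transcripts counted, the shares in shared cells were 61.3% without and 60.8% with a motif. Some origins placed in exons thus held a transcript start. Introns of coding genes held 87 (6.40%), other gene bodies 55 (4.04%), and 129 (9.49%) lay outside genes. In shared cells a coding start was inside 42.9% of origins without and 42.1% of origins with a motif, a difference of 0.843 points (95% interval -2.81 to 4.50, adjusted p = 0.956, n = 23 chromosomes), whereas unweighted it was -15.8 points. No annotated gene start within 1 kb was found for 31.2% and 33.8%, a difference of -2.59 points (95% interval -6.57 to 1.38, adjusted p = 0.462, n = 23 chromosomes). In 51 origins coding genes started on opposite strands.

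Readouts differed between these places. At coding gene starts 451 of 567 origins without a motif (79.5%) were called at 15 minutes, against 255 of 430 in exons (59.3%), 31 of 87 in introns (35.6%) and 45 of 129 outside genes (34.9%), with median lengths of 700, 500, 400 and 400 bp. A peak of the 2 to 4 kb fraction lay over all 567 origins at coding starts, but over 66 of 87 in introns (75.9%) and 105 of 129 outside genes (81.4%). The purine or pyrimidine tracts, of which there were 51, made up 46 of the 56 origins with no such peak, and 21 of them lay in introns, 20 outside genes and 10 in other gene bodies. Without tracts the peak lay over 65 of 66 origins in introns (98.5%) and 94.5% of the 109 outside genes, and the 15-minute call was made for 31 of 66 (47.0%) and 45 of 109 (41.3%).

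**Figure D5:**
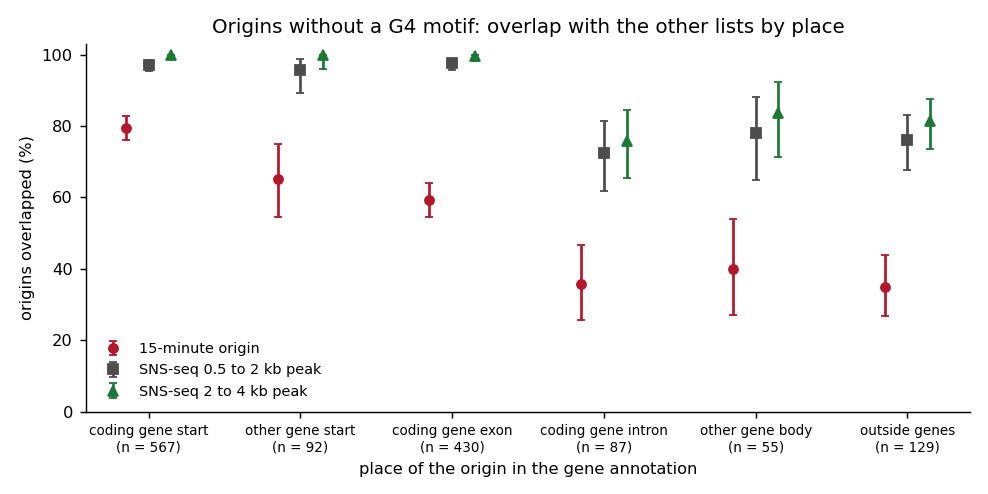
Share of the 1360 origins without a G4 motif overlapped by a 15-minute origin (circles), a 0.5 to 2 kb SNS-seq peak (squares) or a 2 to 4 kb SNS-seq peak (triangles), by place in the gene annotation (%); bars are exact 95% Clopper-Pearson intervals. Origins in introns and outside genes sit lowest in all 3 lists, at 35.6% and 34.9% for the 15-minute list, with tracts included.

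The highest possible efficiency of 1 was reached by 10 origins without a motif, of 44 origins in the whole list. The SLK origin (chr10:103967101-103967600) was the only one of them at a coding gene start, with a 15-minute Z-score of 2.00. Next at coding starts came GLYR1 (chr16:4846801-4848100, efficiency 0.994, 1300 bp, Z-score 0.94), VKORC1L1, a relative of the vitamin K epoxide reductase (0.9911, 400 bp, Z-score 2.56), and the zinc finger gene ZNF32 (0.9901, 700 bp, Z-score 1.08). PUDP (0.9885), the sorting nexin SNX18 (0.9876), the pyruvate dehydrogenase kinase PDK3 (0.9875), the serotonin receptor HTR7 (0.9868), the sodium/proton exchanger SLC9A7 (0.9848) and BAMBI, a decoy receptor of TGF-beta signalling (0.9845), completed the first 10. All 10 were called at 15 minutes and overlapped peaks of both SNS-seq fractions, with Z-scores from -0.27 at PDK3 to 2.56 at VKORC1L1. Distance to the nearest motif differed widely in this group, from 1 bp at VKORC1L1 to more than 10 kb at SLK.

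Away from annotated starts, 8 origins had an efficiency of 1. Of these 7 were 300 bp long, the shortest length in the list, and the site shared by PALLD and CBR4 had 400 bp. They lay in exons of the RING finger gene RNF39, the homeobox gene DLX6, HMGB1, which encodes an abundant chromatin protein, CTXND1 and the deubiquitinase gene OTUD5, in an intron of the zinc finger gene ZFX, and in a non-coding gene on chromosome 3. Efficiencies of 0.9923 and 0.9914 followed at exons of SH3D19 and PLIN2, which encodes a lipid droplet protein. Of these 10 origins, 8 were called at 15 minutes, under intervals from 300 bp at SH3D19 and PLIN2 to 1400 bp at ZFX. The chromosome 3 site and RNF39 were not, although both lay under peaks of each SNS-seq fraction (1674 and 3328 bp, 1620 and 2640 bp). Among the 10, the nearest motif outside lay from 3 bp at CTXND1 to 3824 bp at OTUD5. It lay 36 bp from the edge at HMGB1, 42 bp at DLX6, 44 bp at PLIN2 and 82 bp at ZFX.

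The same 2 sites headed the efficient origins without a motif that the 15-minute list lacked. They were followed by chr16:34802101-34802600 (efficiency 0.9907) and chr22:25421001-25421400 (0.9895), both outside genes, and by the start of the serpin gene SERPINB9 (0.98, 500 bp). All 5 overlapped peaks of both SNS-seq fractions. In all, 496 origins without a motif were not called at 15 minutes.

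Gene families at the starts of these origins were counted as a description. Origins without a motif held 630 of the 4800 starts of coding genes in efficient origins (13.1%). For DNA replication genes (MCM, ORC, DNA polymerase and loading factors) this was 3 of 14, for genes named ZNF 19 of 105, for genes of the proteasome named PSM 4 of 10, for cytosolic ribosomal proteins 2 of 7, for mitochondrial ribosomal proteins 2 of 12, for complex I subunits 1 of 3, for HOX genes 1 of 7, for histone genes 0 of 4 and for SNHG host genes 2 of 6. The replication genes were MCM6, a subunit of the replicative helicase (efficiency 0.9072, 800 bp, called at 15 minutes with a Z-score of -0.74), POLD3, a subunit of DNA polymerase delta (0.959, 800 bp, Z-score 0.39), and POLA1, the catalytic subunit of DNA polymerase alpha (0.9197, 300 bp, not called at 15 minutes). MRPL36 and NDUFS6 started inside a single 500 bp origin (0.9271). RPL13 and RPL35 origins had efficiencies of 0.9441 and 0.9387 and were called at 15 minutes with Z-scores of -1.22 and -0.84. HOXA4 lay in a 1200 bp origin of efficiency 0.9504 with a Z-score of 0.04.

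Short letter patterns known from promoters were searched on both strands. The SP1 letters GGGCGG, which share G runs with a G4 motif, occurred in 1179 of the 1360 origins (86.7%). In shared cells they occurred in 89.0% of origins without and 92.2% with a motif. For NF-Y (GCCAAT) the shares in shared cells were 15.8% and 15.0%, for the E-box (CACGTG) 17.2% and 14.4%, for ETS factors (CCGGAAGT) 6.68% and 4.77%, for NRF1 (GCGCATGC) 5.47% and 4.42%, for YY1 (AAGATGGC) 5.09% and 4.23%, for the TATA letters (TATAAA) 4.02% and 3.37%, for CREB (TGACGTCA) 2.58% and 2.49%, for Kaiso (TCTCGCGA) 1.82% and 1.44%, and for ZNF143 (ACTACAAT) 0.380% and 0.358%. These differences were not tested. At equal length, the 220 origins of 300 bp held the SP1 letters in 65.5%, the E-box in 9.09% and the NF-Y letters in 6.36%, beside 45.0%, 7.26% and 14.8% of 35116 RefSeq promoters of 300 bases (GRCh38.p14). The other 7 patterns were all less frequent in these origins than in promoters, but each occurred in at most 6 of the 220. Only 29 of the 220 (13.2%) contained a protein-coding gene start. None of these comparisons with promoters was tested, and they are matched for length only. The 220 origins had a median GC content of 71.3%, and the promoters were not selected on GC content. The TATA letters occurred in 2.27% against 11.5%, those of ETS factors in 2.73% against 4.14%, YY1 in 2.27% against 2.89%, NRF1 in 1.36% against 3.05%, CREB in 0.455% against 1.85%, ZNF143 in 0.455% against 0.638% and Kaiso in 0% (0 of 220) against 1.15%. A G4 motif was found in 24.997% of those promoters.

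In shared cells neither a neighbouring origin within 10 kb nor strand asymmetry gave a difference past the threshold. Another 3-hour origin lay within 10 kb of 27.7% of origins without and 30.7% with a motif in shared cells, a difference of -3.00 points (95% interval -7.10 to 1.09, adjusted p = 0.462, n = 23 chromosomes). Inside ini-domains, groups of at least 6 origins joined over gaps of up to 100 kb, lay 469 origins without a motif (34.5%), with 91 more at a border (6.69%) and 800 outside (58.8%). In shared cells 34.8% of origins without and 40.6% with a motif lay inside a domain, and 58.8% and 53.2% outside, which was not tested. GC skew, (G - C)/(G + C) on the plus strand, changed from the 5 kb left of the origin to the 5 kb right of it by 0.0263 without and 0.0270 with a motif, a difference of -0.000696 (95% interval -0.0060 to 0.0046, adjusted p = 0.966, n = 23 chromosomes). AT skew changed by -0.0429 and -0.0391, a difference of -0.0037 (95% interval -0.011 to 0.0037, adjusted p = 0.551, n = 23 chromosomes). Intervals of this width leave room for modest differences in either direction. Unweighted, both skew differences passed the threshold, at -0.0115 for GC and 0.0088 for AT. The unweighted neighbour difference of -1.62 points did not.

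Purine or pyrimidine tracts stood apart from the rest. With a purine content above 75% or below 25%, limits chosen after seeing the data, 51 of the 1360 origins were such tracts. So were 84 of the motif-bearing ones. The median GC content was 48.9% in the 51 and 56.25% in the 84. None of the 51 was called at 15 minutes (0 of 51, exact upper limit 6.98%), none contained a coding gene start, and 5 overlapped an SNS-seq peak of either fraction. How uniquely reads can be placed in such repetitive sequence was not tested. Of the 84 motif-bearing tracts 4 (4.76%) were called at 15 minutes and 10 (11.9%) overlapped a 2 to 4 kb peak. The other 1309 origins without a motif were called at 15 minutes in 66.0% and overlapped peaks of the smaller and the larger fraction in 96.4% and 99.2%. Of the 31 origins without a motif that had no SNS-seq peak within 5 kb, 29 were tracts, headed by a site in a CSRNP3 intron (chr2:165666601-165667000, efficiency 0.978, purine content 97%). An exception was chr22:16563301-16563600 outside genes (0.9746, GC content 68%), which was called at 15 minutes with a Z-score of -1.73.

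The longest origins without a motif were mixed in kind. After the 3000 bp ANKDD1A tract came a 2800 bp origin overlapping TNRC18 (chr7:5419101-5421900, efficiency 0.9075), which held 87 G runs and 92 C runs, and a 2500 bp origin over an exon of IRS2, which encodes an insulin receptor substrate (chr13:109782001-109784500, 0.9564), with 93 and 58 runs. A 2400 bp origin outside genes on chromosome 15 (0.9086) and a 2300 bp origin at the CCDC96 start (0.9245) followed. The TNRC18, IRS2 and CCDC96 origins were called at 15 minutes with Z-scores of -1.002, -0.20 and 0.92, and the chromosome 15 origin was not called.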

How the data were processed

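EJ30 origins were taken from 4 deposited lists on hg38; the genomic DNA input of SNS-seq was not analysed here. For ini-seq 2 the authors aligned reads with bowtie2, scored windows of 100 bp by HL and LL reads scaled to library totals, joined windows with log2(HL/LL) of 2 or more within 500 bp and kept intervals whose efficiency reached 0.8. The deposited 3-hour value was taken as this efficiency, a fraction, although its column is headed Z-score, because its values lie between 0.8 and 1. The origins and all efficiencies given rest on this reading. The deposited 15-minute value is a score, a Z-score over its own list, and the replicates behind it are not given in the sources used here. SNS-seq peaks came from MACS2 against genomic DNA, and the authors deposited their positions only. These positions hold no counts, so the depth at a single peak is unknown. Origins join windows that passed a ratio, so a short interval may be part of a longer region with weaker enrichment at its sides.

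G4 motifs were searched on both strands of hg38, and gene starts came from GENCODE 44. Origins with and without a motif were compared by a weighted fit in shared cells of length, GC content and efficiency, with standard errors clustered by 23 chromosomes, two-sided p-values and Benjamini-Hochberg adjustment over 9 results. This fit was run on simulated data with known differences. Outcomes were drawn independently for each origin, so correlation within chromosomes was not part of that test. Overlap meant at least 1 bp. Shares carry exact Clopper-Pearson intervals of 95%. Each assay is 1 list, so p-values measure the spread between chromosomes and not between experiments.

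Named regions are the 10 most efficient with and without gene starts, the 5 of lowest GC content, the longest 5, up to 5 without G runs, 15-minute calls or SNS-seq peaks within 5 kb, and 3 on each side of the threshold. Sequences are those of the first 2 regions at gene starts and away from them that had at least 60 bases outside UTRs, and of 1 GC-poor region, shown whole up to 300 bases and otherwise by 200 central bases; other regions of the rule are not reported here. Members, gene groups and letter patterns were chosen with earlier results of these data known. Alternatives were other cells, regression, other motif and overlap rules, a higher threshold, other lengths and flanks, leaving out chromosome 19 and, added after seeing the data, leaving out purine or pyrimidine tracts. Python 3.11.15, numpy 2.4.6, pandas 2.3.3, scipy 1.17.1 and matplotlib 3.10.9 were used.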

Additional observations from a re-analysis of the deposited data

How the results depend on the processing

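No paired analysis was possible because each assay is represented by 1 list. Over the 9 differences and the number of origins without a motif, 69 values from other settings kept their direction and their side of the threshold, or for the number stayed within 1.5 times; the exceptions follow. All differences are without minus with a motif, in percentage points for shares. Without weighting, 8 differences passed the threshold: the 15-minute call (-25.01), its Z-score (-0.324), SNS-seq 0.5 to 2 kb (-5.18) and 2 to 4 kb (-2.92), a coding start (-15.8), no start within 1 kb (10.3), GC skew (-0.0115) and AT skew (0.0088). Coarse cells gave -7.06 for the 15-minute call and -2.19 for a coding start, and linear regression gave -6.78 for the 15-minute call, 0.322 for SNS-seq 0.5 to 2 kb and -0.678 for a coding start. The 15-minute difference was also negative in the other settings tried. With no motif within 250 bp of the edges it was -4.89 (95% interval -9.03 to -0.745, adjusted p = 0.116 in the weighted fit, n = 23 chromosomes). In that setting another origin within 10 kb gave -5.78 (95% interval -10.8 to -0.770, adjusted p = 0.116, n = 23 chromosomes). These intervals exclude 0 but are not adjusted over the 9 results. The same held in other settings (95% intervals in brackets). With loops of 12 nt another origin within 10 kb gave -5.26 (-8.85 to -1.66). Over origins of 300 to 600 bp AT skew gave -0.012 (-0.021 to -0.0032). The Z-score gave -0.098 (-0.172 to -0.025) with coarse cells and -0.063 (-0.115 to -0.011) with linear regression. Linear regression gave 0.948 (0.238 to 1.66) for SNS-seq 2 to 4 kb. In the remaining cases the sign turned without passing the threshold. With fine cells GC skew was 0.00067. With loops of 12 nt SNS-seq 0.5 to 2 kb was 0.771, a coding start -0.651 and GC skew 0.0070. With no motif within 250 bp of the edges SNS-seq 2 to 4 kb was -0.294. At an efficiency of at least 0.95 the Z-score was 0.0042, SNS-seq 0.5 to 2 kb 1.46, another origin within 10 kb 2.33 and GC skew 0.00068. In that setting no start within 1 kb was 5.06, with a 95% interval of 0.338 to 9.78 that excludes 0. Without chromosome 19 SNS-seq 2 to 4 kb was -0.109 and a coding start -0.048. Over origins of 300 to 600 bp the Z-score was 0.021, SNS-seq 0.5 to 2 kb 0.441 and GC skew 0.0017. With peaks within 1 kb SNS-seq 0.5 to 2 kb was 0.555, and without purine or pyrimidine tracts, a setting chosen after seeing the data, SNS-seq 2 to 4 kb was -0.464. The causes of these changes were not tested. The number of origins without a motif was 454 with loops of 12 nt and 369 at an efficiency of at least 0.95. With the depth at single origins unknown, an origin missing from a list may have been below detection.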
